A study of Arabidopsis thaliana with 27 samples.

Results

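Sugar and starch metabolism was represented on a small Arabidopsis thaliana stress array by 3 genes, which were chosen by their annotation with earlier results of these data known: AT5G51830, AT1G62660 and DPE1 (AT5G64860). They are 3 of the 416 genes with a name on the array and hold 6 of its 884 named spots, a pair of spots each. All 3 had a value in each of the 24 conditions and were among the 180 genes tested. AT5G51830 encodes a pfkB-type carbohydrate kinase of the fructokinase group, AT1G62660 a vacuolar invertase, and DPE1 the plastid disproportionating enzyme.

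In leaves, sucrose that is stored in the vacuole is split by vacuolar invertase into glucose and fructose. Fructokinases phosphorylate the fructose in the cytosol or the plastid, which brings it back into metabolism. Starch made in the chloroplast by day is broken down at night, mainly to maltose, and the disproportionating enzyme rebuilds the short malto-oligosaccharides that remain and releases glucose from them. The 3 genes therefore stand at separate steps: sucrose cleavage, fructose use and the turnover of starch fragments. In the RefSeq gene order of assembly TAIR10.1, AT5G51830 lies beside AT5G51820 (PGM), the plastid phosphoglucomutase gene of starch synthesis, which was not among the named genes of the array.

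Plants of ecotype Columbia, 28 days old and grown in soil with a 12 h light period, were sprayed with 1 of 6 agents. Salicylic acid (SA), a hormone of plant defence, was given at 5 mM. INA, at 1 mM, and BTH, at 0.5 mM, are synthetic compounds that switch on the SA response. Beta-aminobutyric acid (BABA), an amino acid that primes resistance, was given at 10 mM. Ethephon (ET) gives off ethylene in the plant and was given at 1 mM. Methyl jasmonate (MeJA, called JA in sample titles) was given at 0.1 mM. Shoots were taken 2, 5, 10 and 24 h after spraying. On each of 27 arrays the RNA of sprayed plants (Cy5) was set against that of untreated plants (Cy3), and the dyes were not swapped. The labels describe no mock spray, and they state that sprayed plants were kept at high humidity. The clock time of harvest is not given in the sources used here. Effects of dye, spraying or humidity that all agents share cannot be told apart from those of an agent in a comparison with untreated plants. In whole shoots, fewer cells of a type and less RNA per cell cannot be told apart either. Tissue identity could not be checked, since ratios hold no level. Of 10 leaf, root and seed marker genes, PYK10, a root and ER body beta-glucosidase, was on the array. Its mean log2 ratios were -1.20 for SA, -1.19 for INA, -1.40 for BTH, -0.65 for BABA, -0.13 for ET and 1.31 for MeJA, and its part in the values of the 3 genes was not tested.

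The 10 h and 24 h conditions of INA and the 5 h condition of BTH had 2 arrays of the same pooled RNA, which were averaged, and the other 21 conditions had 1. The labels call the tissue leaves in one place and the whole plant without its root in another, and say that plants of repeated experiments were pooled before RNA extraction. Each condition is therefore 1 sample of pooled plants, and the 4 times of an agent stand in for its replicates. An array had 1204 to 2358 spots with a value, and precision is limited by how few arrays there are. The first INA 24 h array, which had the fewest, gave no value for any of the 3 genes. Values below are log2 ratios of sprayed over untreated plants from which the median of all spots of the array was subtracted. Fold changes assume that the deposited logarithms, for which no base is given, are to base 2. Higher and lower are meant against the array's median spot.

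The spots of each gene gave nearly the same reading. On arrays with a value for both spots, they correlated at r = 0.98 for AT5G51830 (23 arrays), 0.98 for AT1G62660 (22 arrays) and 0.91 for DPE1 (25 arrays). The median absolute difference between spots was 0.19, 0.11 and 0.20 in that order. The largest was 1.31, for DPE1 on the second BTH 5 h array. In the same order of genes, 3, 4 and 1 arrays had a value for 1 spot only. Repeat arrays of the same RNA differed by -0.29 for AT5G51830 at INA 10 h and by -0.59 at BTH 5 h. For AT1G62660 these differences were -0.08 and -0.52, and for DPE1 0.17 and 0.16 (second array minus first). Cross-hybridisation with related kinases or invertases on these cDNA spots was not assessed.

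**Figure D1:**
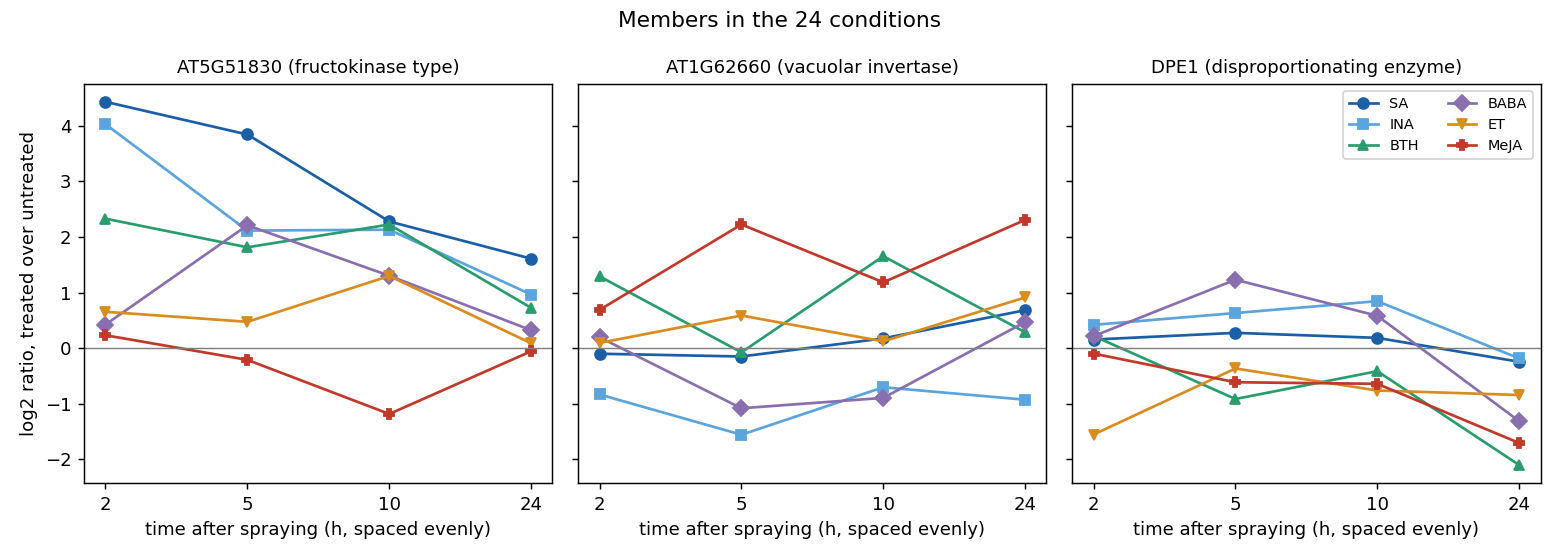
Log2 ratio of treated over untreated RNA (vertical axis) for the 3 genes at 2, 5, 10 and 24 h after spraying (horizontal axis, spaced evenly), with 1 line per agent and 1 point per condition. AT5G51830 starts at 4.43 under SA and 4.03 under INA, AT1G62660 stands highest under MeJA at 5 h and 24 h, and DPE1 has its lowest value at 24 h under every agent except ET.

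AT5G51830, the fructokinase-type gene, rose under 4 of the 6 agents, with the highest values early after SA and INA. From 2 h through 5 h and 10 h to 24 h it measured 4.43, 3.85, 2.28 and 1.61 with SA. With INA it measured 4.03, 2.12, 2.13 and 0.96 at the same times. The 2 h values correspond to 21.6-fold and 16.4-fold. AT5G51830 ranked second among 178 tested genes with a value at SA 2 h, first among 178 at SA 5 h and first among 177 at INA 2 h, and such ranks do not depend on how an array is centred.

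Under BTH, AT5G51830 held a plateau of 2.33, 1.81 and 2.22 at 2, 5 and 10 h and stood at 0.72 at 24 h. Under BABA it measured 0.42 at 2 h, 2.21 at 5 h, 1.30 at 10 h and then 0.32 at 24 h. BABA was thus low at the time when SA and INA were highest. Under ET the values were 0.65, 0.47, 1.30 and 0.09, and under MeJA 0.23, -0.21, -1.19 and -0.06. With this centring, MeJA was the only agent with values below 0, and its 4 values lay below all values of SA, INA, BTH and BABA. Before centring, the spots read -0.26 and -0.41 at BABA 2 h and -0.12 and -0.085 at ET 24 h. Those at MeJA 2 h read 0.24 and 0.10, and the 1 spot at MeJA 10 h -1.22. Both statements therefore depend on the centring. The MeJA values at 10 h and 24 h each rest on 1 spot, as does the INA value at 24 h.

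The mean of AT5G51830 over the 4 times was 3.04 ± 0.34 under SA (SE, 8.24-fold, adjusted p = 5.6e-08), and 2.31 ± 0.34 under INA (4.96-fold, adjusted p = 4.2e-06). It was 1.77 ± 0.34 under BTH (3.42-fold, adjusted p = 9.7e-05) and 1.06 ± 0.34 under BABA (2.09-fold, adjusted p = 0.0080), by limma with Benjamini-Hochberg adjustment over the 180 genes. The means under ET (0.63 ± 0.34, adjusted p = 0.12) and MeJA (-0.31 ± 0.34, adjusted p = 0.48) did not pass the threshold of 0.05. The calls under SA, INA and BTH held in all 15 alternatives in which the gene was tested. Without the 5 h conditions the BABA mean was 0.68 (adjusted p = 0.16), and the ET mean passed with each of the other 3 scalings (0.99 to 1.27).

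AT1G62660, the vacuolar invertase gene, rose under MeJA and BTH and was lower than the median under INA. Its values with MeJA were 0.69, 2.23, 1.18 and 2.31 in order of time. The last of these is 4.95-fold and ranked 8 among 169 tested genes with a value. Under BTH the values went up and down, with 1.29 at 2 h, -0.08 at 5 h, 1.65 at 10 h and then 0.28 at 24 h. The 5 h value was the mean of 0.18 and -0.34 on the repeat arrays, and both came from the same 1 spot.

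Under INA, AT1G62660 measured -0.84, -1.56, -0.71 and -0.93 from 2 h to 24 h. With this centring, all 4 values lay below those of SA, BTH, ET and MeJA, whereas those of INA and BABA overlapped. Under BABA it measured 0.19 at 2 h, -1.08 at 5 h, -0.90 at 10 h and then 0.47 at 24 h, so the sign changed between times. Under SA the values ran from -0.15 to 0.68 and under ET from 0.09 to 0.91, in both with the highest value at 24 h.

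The mean of AT1G62660 was 1.60 ± 0.28 under MeJA (3.03-fold, adjusted p = 5.3e-05), 0.79 ± 0.28 under BTH (1.73-fold, adjusted p = 0.018) and -1.01 ± 0.28 under INA (2.01-fold lower, adjusted p = 0.0035, limma). Means of 0.15 under SA, 0.43 under ET and -0.33 under BABA did not pass, with adjusted p of 0.64, 0.20 and 0.28. The MeJA call held under all 16 alternatives. The INA call was lost with each of the other 3 scalings (-0.58 to -0.085), the BTH call without the 2 h conditions (0.62, adjusted p = 0.092) or the 10 h conditions (0.50, adjusted p = 0.19), and SA and ET passed as higher with those 3 scalings.

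DPE1, which rebuilds glucan chains from starch fragments, had means below the array median under ET, BTH and MeJA that passed the test with this centring only. Under ET it measured -1.56 at 2 h, -0.37 at 5 h, -0.77 at 10 h and then -0.85 at 24 h. Under MeJA it measured -0.10, -0.62, -0.64 and -1.71, and under BTH 0.22, -0.92, -0.42 and -2.11. The BTH value at 24 h is 4.31-fold lower and was the 13th lowest of 180 genes.

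Under BABA, DPE1 had its widest course, with 0.21 at 2 h, 1.23 at 5 h, 0.58 at 10 h and then -1.32 at 24 h. Under INA it measured 0.42, 0.63, 0.84 and -0.19, and under SA 0.15, 0.27, 0.18 and -0.25. With this centring, these 3 agents gave values above 0 at 2, 5 and 10 h and below 0 at 24 h. Before centring, the DPE1 spots at 24 h read 0.69 and 0.87 under SA and 0.30 and 0.02 under INA. Those at BABA 2 h read -0.47 and -0.62, so these signs depend on the centring.

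The mean of DPE1 was -0.88 ± 0.25 under ET (adjusted p = 0.0050), -0.81 ± 0.25 under BTH (adjusted p = 0.0080) and -0.77 ± 0.25 under MeJA (adjusted p = 0.014, limma). Its means of 0.43 under INA, 0.18 under BABA and 0.09 under SA had adjusted p of 0.14, 0.53 and 0.76. None of the 3 lower calls held with another scaling: centred on TUA5, an alpha-tubulin gene with 54 spots, the means were -0.52 under ET, 0.55 under BTH and 0.16 under MeJA. With those spots as reference DPE1 passed as higher under SA (1.25) and INA (1.35).

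**Figure D2:**
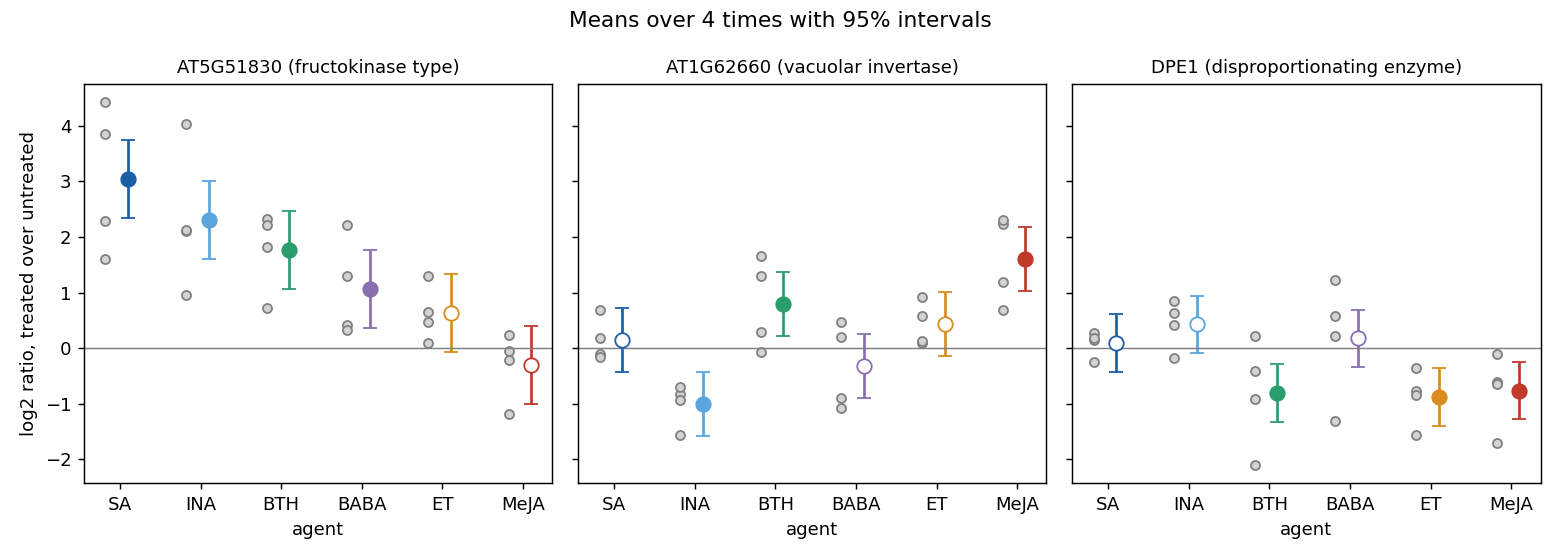
Mean log2 ratio over the 4 times (large points) with its 95% interval from the limma fit (bars) for each agent, beside the 4 single values (grey points). Filled large points have an adjusted p under 0.05. AT5G51830 passes under SA, INA, BTH and BABA, AT1G62660 under INA, BTH and MeJA, and DPE1 under BTH, ET and MeJA.

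Of the 3 genes, 1 passed under SA, where 72.8% of the tested genes did. For INA 2 of them passed (60% of tested genes) and for BTH all 3 (60%). BABA gave 1 (66.7%), ET 1 (53.9%) and MeJA 2 (46.1%). Calls against untreated plants were thus common on this array. With the array median, higher and lower calls over all tested genes numbered 67 and 64 for SA, 59 and 49 for INA, 57 and 51 for BTH, 61 and 59 for BABA, 58 and 39 for ET, and 40 and 43 for MeJA. Without centring these splits were 97 and 14, 86 and 15, 60 and 27, 69 and 36, 90 and 11, and 44 and 16, in the same order of agents. Relative to TUA5 they were 126 and 9, 118 and 13, 144 and 10, 72 and 43, 81 and 18, and 126 and 8. After quantile normalization they were 92 and 30, 91 and 25, 98 and 28, 85 and 35, 102 and 20, and 89 and 21.

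**Figure D3:**
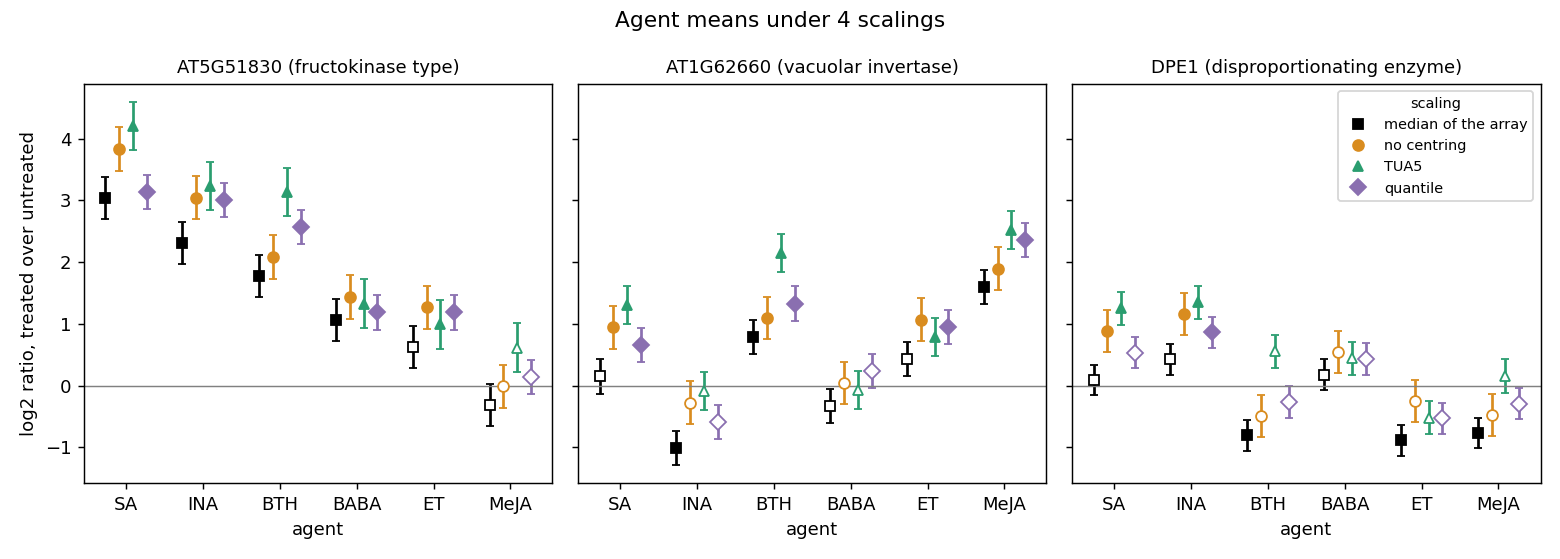
Mean log2 ratio over the 4 times with its SE (bars) for each agent under 4 scalings of the arrays: the array median, no centring, the TUA5 spots, and quantile normalization. Filled points have an adjusted p under 0.05. The AT5G51830 means under SA, INA, BTH and BABA and the AT1G62660 means under BTH and MeJA are filled in all 4, whereas the 3 DPE1 means that are filled with the array median (ET, BTH and MeJA) are open in the others.

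The agents were then compared with one another for each gene, and any dye effect shared by all arrays drops out of such differences. The doses differed, so the comparison is of treatments and not of equal amounts. For AT5G51830 the order was SA, INA, BTH, BABA, ET and MeJA. No neighbours in this order differed beyond the threshold. The differences between neighbours were 0.73 ± 0.48 for SA over INA (95% interval -0.26 to 1.72), 0.54 for INA over BTH, 0.71 for BTH over BABA, 0.44 for BABA over ET and 0.93 for ET over MeJA. Agents further apart did differ: SA exceeded MeJA by 3.35 ± 0.48 (adjusted p = 4.8e-06), ET by 2.42 ± 0.48 (adjusted p = 0.00026), BABA by 1.98 ± 0.48 (adjusted p = 0.0026) and BTH by 1.27 ± 0.48 (adjusted p = 0.038, limma). Each of these had the same sign at all 4 matched times. Of the 8 pairs that passed, 5 held in every alternative: SA over BABA, ET and MeJA, INA over MeJA and BTH over MeJA. SA over BTH was lost in 7 of 15, among them quantile normalization (0.58, adjusted p = 0.26), TUA5 (1.07, adjusted p = 0.15) and the fit without the second repeat arrays (1.20, adjusted p = 0.0505). In a fit of all 27 arrays with the replicate number as a block, INA over BABA (1.48, adjusted p = 0.032) and BTH over ET (1.22, adjusted p = 0.044) passed as well, against 1.25 and 1.15 with adjusted p of 0.083 and 0.077. That fit also enters repeat arrays of the same RNA as separate observations, and which of these changes moved the pairs was not tested.

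For AT1G62660 the order was MeJA, BTH, ET, SA, BABA and INA. Again no neighbours differed beyond the threshold, with differences of 0.81 ± 0.39 for MeJA over BTH (adjusted p = 0.11), 0.36 for BTH over ET, 0.28 for ET over SA, 0.48 for SA over BABA and 0.68 ± 0.39 for BABA over INA (adjusted p = 0.27). MeJA exceeded INA by 2.61 ± 0.39 (adjusted p = 8.4e-06), BABA by 1.93 ± 0.39 (adjusted p = 0.00024) and SA by 1.45 ± 0.39 (adjusted p = 0.0032, limma). The difference from SA did not pass without centring (-0.95 for SA minus MeJA, adjusted p = 0.11). Of the 7 pairs that passed, INA against BTH, INA against MeJA and BABA against MeJA held in every alternative. Between the synthetic activators, INA lay 1.80 ± 0.39 below BTH (adjusted p = 0.0012, limma). With this centring, the 4 values of one did not overlap those of the other. INA also lay below SA at all 4 times, by 1.16 ± 0.39 (95% interval 0.34 to 1.97), which missed the threshold (adjusted p = 0.076).

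For DPE1 the order was INA, BABA, SA, MeJA, BTH and ET, with a step between SA and MeJA of 0.86 ± 0.35 (adjusted p = 0.041). Within INA, BABA and SA the differences were at most 0.34 ± 0.35, and within MeJA, BTH and ET at most 0.12 ± 0.35. All 9 pairs that cross the step passed, from 0.86 to 1.31 (limma), and no pair within either side did. The step was placed by sorting these same means. The split therefore follows in part from that choice and is no separate test of groups. None of the 9 held under every alternative. Called pairs numbered 5 without centring, with TUA5 and after quantile normalization. Centred on TUA5, BTH had a mean of 0.55 and stood 0.11 above BABA (adjusted p = 0.81, limma), so BTH no longer lay on the lower side. Without the 10 h conditions no pair passed. The fit without terms for time gave 0 pairs as well, against 5 for AT5G51830 and 5 for AT1G62660.

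Over the 15 pairs of agents, AT5G51830 passed in 8, AT1G62660 in 7 and DPE1 in 9. All 3 genes passed for SA against MeJA (58.3% of tested genes), INA against ET (34.4%), INA against MeJA (49.4%) and BABA against MeJA (58.3%). A pair of the genes passed for SA against BTH (40.6%), SA against ET (56.7%), INA against BTH (33.9%) and BTH against BABA (46.7%). One gene passed for SA against BABA (38.9%), BTH against MeJA (34.4%), BABA against ET (46.1%) and ET against MeJA (21.1%). No gene of the 3 passed for SA against INA (6.67% of tested genes), INA against BABA (17.8%) or BTH against ET (23.9%).

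Over time, AT5G51830 fell. Its mean over the 6 agents was 2.02 ± 1.88 at 2 h (SD over agents), 1.71 ± 1.43 at 5 h, 1.34 ± 1.32 at 10 h and then 0.61 ± 0.62 at 24 h. The late times (10 and 24 h) lay below the early times (2 and 5 h) by -0.89 ± 0.30 (adjusted p = 0.038, limma), with this direction under 5 of 6 agents, ET being the exception. Of the 3 genes it was the only one called, and 25% of tested genes were. The course was steepest under SA, from an early mean of 4.14 to a late mean of 1.94, and under INA, from 3.07 to 1.55. For this gene the late minus early difference did not pass as different between agents (moderated F test of limma, F = 1.32, unadjusted p = 0.30, adjusted p = 0.9997). The late against early call was lost without centring (-0.80), relative to TUA5 (-0.47), without the second repeat arrays (-0.79, adjusted p = 0.070), and without the 2 h (-0.73) or 24 h conditions (-0.52).

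DPE1 had means over the agents of -0.11 ± 0.73 at 2 h, 0.04 ± 0.82 at 5 h, -0.04 ± 0.67 at 10 h and then -1.07 ± 0.78 at 24 h. At 24 h all 6 agents were below the array median, from -2.11 under BTH to -0.19 under INA, and under 5 of 6 agents 24 h was the lowest time. Before centring, the 24 h spots under SA and INA were above 0. Late against early gave -0.52 ± 0.27 (adjusted p = 0.17). AT1G62660 had a late minus early difference of 0.33 ± 0.27 (adjusted p = 0.41), with this direction under 6 of 6 agents. The late minus early difference did not pass as different between agents for any of the 180 genes (moderated F test of limma, 0 adjusted, 7 with an unadjusted p under 0.05).

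A contrast of 24 h with the 3 earlier times was added after the values were seen, so it describes the courses and is no independent test. It gave -1.03 ± 0.24 for DPE1 (adjusted p = 0.0011) and -1.08 ± 0.32 for AT5G51830 (adjusted p = 0.0085, limma), each with this direction under 5 of 6 agents. AT1G62660 had 0.47 ± 0.26 (adjusted p = 0.17). Of the tested genes 42.2% passed in this contrast. After centring on TUA5 the differences were -0.45 for DPE1 (adjusted p = 0.13) and -0.50 for AT5G51830 (adjusted p = 0.24).

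The centring of an array cancels in the difference between 2 genes on it, so the members were also set against each other within arrays. Such a difference shows that genes changed unequally, not which of them changed. AT5G51830 stood above DPE1 at all 4 times under SA, INA, BTH, BABA and ET, with means from 0.89 ± 0.59 under BABA (SD, n = 4) to 2.95 ± 1.17 under SA. Under BTH this difference was nearly constant, from 2.11 to 2.83. Under MeJA it was 0.46 ± 0.90.

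AT5G51830 against AT1G62660 turned around between agents. The fructokinase-type gene stood above the invertase gene by 3.32 ± 1.26 under INA and 2.89 ± 1.67 under SA, at all 4 times in both. Under MeJA it stood below it at all 4 times, by -1.91 ± 0.97. AT1G62660 against DPE1 turned around as well, with 2.37 ± 1.38 under MeJA, 1.59 ± 0.75 under BTH and 1.31 ± 0.46 under ET, each above 0 at all 4 times, and -1.43 ± 0.61 under INA, below 0 at all 4.

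Of 45 comparisons of these differences between agents, 14 gave the smallest two-sided p that 4 values against 4 allow in an exact permutation test (0.029). Adjusted over the 45, these 14 have a permutation p of 0.092. With a floor this high the design could hardly reach the threshold, and the test does not use the matching of times, so it says little in either direction. These comparisons were also added after the values were seen. The 14 include SA against MeJA and INA against MeJA for AT5G51830 over AT1G62660, and INA against BTH, ET and MeJA for AT1G62660 over DPE1.

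**Figure D4:**
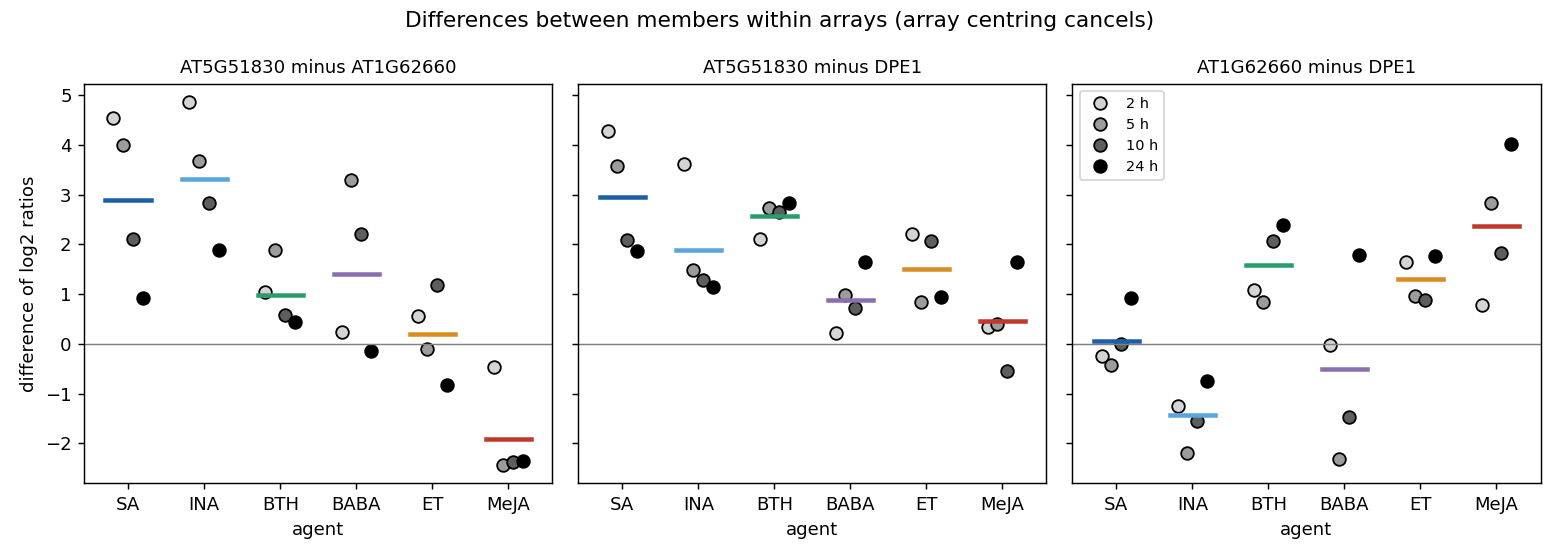
Difference between the log2 ratios of 2 genes in the same condition (vertical axis) for each agent, with 1 point per time, shaded from 2 h (light) to 24 h (black), and a line at the mean of the 4 times. AT5G51830 minus AT1G62660 runs from a mean of 3.32 under INA to -1.91 under MeJA, and AT1G62660 minus DPE1 from -1.43 under INA to 2.37 under MeJA.

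Across the 24 conditions, AT1G62660 and DPE1 varied in opposite senses (Pearson r = -0.55, Spearman -0.58). With this centring they had opposite signs in 19 of them, a count that depends on the centring. At SA 24 h, for example, the spots before centring read 1.66 and 1.76 for AT1G62660 and 0.69 and 0.87 for DPE1. AT5G51830 correlated with DPE1 at 0.54 (Spearman 0.60) and with AT1G62660 at -0.48 (Spearman -0.52). Without the 2 conditions farthest from the median of the first gene of each pair, r was -0.49, 0.54 and -0.46 in that order. After removal of each agent's mean, r was -0.23 for AT1G62660 with DPE1, 0.48 for AT5G51830 with DPE1 and -0.22 for AT5G51830 with AT1G62660. The conditions share agents, times, array centring and possibly untreated RNA, so these values are descriptions.

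Among the other tested genes, those whose condition values were most like AT5G51830 were AT4G20830, a berberine bridge enzyme-like oxidase gene (r = 0.868 over 24 conditions), AT3G55430, a gene of the family of beta-1,3-glucanases (0.835 over 23), and AT1G03220, an aspartyl protease-like gene (0.817 over 24). Their means were 2.78, 1.44 and 2.01 under SA and -0.42, -0.19 and -0.23 under MeJA. Most like AT1G62660 were the NRT1/PTR family transporter genes AT2G26690 (0.747 over 24) and AT3G21670 (0.731 over 23) and the GDSL lipase-like gene AT1G54010 (0.697 over 24). Their means were 0.75, 1.28 and 2.54 under MeJA, and the transporter genes stood at -2.26 and -2.93 under INA, where AT1G54010 stood at 0.030. The transporter genes were also low under SA (-1.92 and -2.19) and BABA (-1.91 and -4.09), where AT1G62660 had means of 0.15 and -0.33. Most like DPE1 were AT2G15960 (0.789 over 22 conditions), AT4G05150 (0.773 over 24) and AT3G62550, a universal stress protein-like gene (0.753 over 22). Under MeJA these had means of -1.14, -1.70 and -2.97. Under SA they had 2.37, -0.11 and 0.46 and under INA 1.57, 0.28 and 1.02, where DPE1 had 0.09 and 0.43, so sizes differed between genes of like course.

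Of 107 genes on a list for sugar kinases, invertases, sucrose synthases, starch synthesis and breakdown, sucrose and trehalose-6-phosphate synthesis, sugar transport and raffinose synthesis, 5 were among the named genes of the array and 4 were tested. The fourth tested gene was APL3, a large subunit of ADP-glucose pyrophosphorylase, the enzyme that makes the glucosyl donor for starch. It measured 0.12, 0.77, 0.76 and 1.22 under ET from 2 h to 24 h and -0.11, 0.05, 0.39 and 1.86 under MeJA. Under BABA it measured -0.31, -1.40, -0.19 and -0.54, and under SA -1.72 at 2 h, -0.39 at 10 h and 0.26 at 24 h, with no value at 5 h.

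APL3 rose under ET (0.72 ± 0.23, adjusted p = 0.011), and was lower under SA (-0.75 ± 0.27, adjusted p = 0.017) and BABA (-0.61 ± 0.23, adjusted p = 0.022, limma). Late times exceeded early times by 0.80 ± 0.22 (adjusted p = 0.014), a call that held in 8 of 10 alternatives. The MeJA mean of APL3, 0.55 ± 0.23, missed the threshold (adjusted p = 0.054, limma). It stayed uncalled in 8 of 13 alternatives and passed as higher in the others. Its SA mean turned to 0.10 without centring and to 0.42 relative to TUA5, and neither the SA nor the BABA call passed with any of the other 3 scalings. The ET call was lost without the 10 h conditions (0.70), without the 24 h conditions (0.55) and without terms for time (0.72, adjusted p = 0.071). SWEET15, a sugar exporter gene, had values in 3 conditions, 0.14 at SA 2 h, -0.59 at INA 5 h and 0.20 at ET 10 h, and was not tested. Of the 4 tested genes, 1 was higher and 1 lower under each of SA, INA, BABA, ET and MeJA, and 2 were higher and 1 lower under BTH. Over all tested genes, the share called in either direction was 72.8% for SA, 60% for INA, 60% for BTH, 66.7% for BABA, 53.9% for ET and 46.1% for MeJA. The counts are therefore not read as a result about the list. The medians of the 4 genes ran from -0.077 with BABA to 0.53 with ET, beside -0.04 to 0.11 over all tested genes. The list is described by these counts only, since 3 of its 4 tested genes are those described above.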

How the data were processed

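The deposited log2 ratios (Cy5 over Cy3, base not stated) come from 1 value table of 27 arrays, all of whose columns were matched to samples. Per the labels, signals were calculated in ScanArray Express from ScanArray Lite scans. How spots were filtered, background-corrected and normalized is not given in the sources used here. Groups were read from sample titles. One INA array titled 10 h (the first) carries 2 h in its source name, and that array correlated at 0.931 with the second INA 10 h array and at 0.779 with INA 2 h. For ET at 10 h, 1 protocol entry gives 5 h.

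Spots were named through the platform annotation and RefSeq (415 of 416 genes matched). Array medians ran from -0.76 to 1.49, so each array was median-centred. Spots and repeat arrays were averaged. Genes with values in at least 20 conditions and 3 times of each agent were fitted with R 4.3.3 and limma 3.58.1: a mean per agent and sum-to-zero terms for time, moderated variance, two-sided tests, Benjamini-Hochberg adjustment over 180 genes. P-values measure only the spread over times that this model leaves, which may be partly technical. Phase was fitted with a mean per agent and phase. The fits were also run on simulated data in which genes varied independently of one another. Genes of the real arrays did not, so that run does not check the p-values given here. The genes of the 3 conditions with repeat arrays deviated together by replicate number (r of 0.42 to 0.55 between conditions), so a fit with that number as a block was run. The alternatives were 16 in all: scalings, filters, repeat arrays, the INA label, time terms, times left out and robust moderation. The members, the gene list and the naming rule (the 3 most alike tested genes per member by Pearson r, and listed genes on the array) were chosen with earlier results of these data known. No sequences are shown, since the tables used here hold none.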

Additional observations from a re-analysis of the deposited data

Results flagged for a closer look

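AT1G62660 lay below the array median at all 4 times under INA and above it at all 4 times under MeJA and under ET. The ET values at 2 h (from 1 spot) and 10 h were 0.09 and 0.12, near the median. The ET mean of 0.43 did not pass (adjusted p = 0.20, limma). The difference between INA and MeJA was -2.61 ± 0.39 and that between INA and ET -1.44 ± 0.39, and both passed the test of the difference (adjusted p = 8.4e-06 and 0.0057, limma). The first held in all 16 alternatives, and the second was lost relative to TUA5 (-0.88, adjusted p = 0.14). The INA mean itself did not pass with the other 3 scalings. Within arrays, where centring cancels, AT1G62660 minus DPE1 was below 0 at all 4 times under INA and above 0 at all 4 under ET and MeJA, but DPE1 itself had means of 0.43, -0.88 and -0.77 there. AT5G51830 minus AT1G62660 was above 0 at all 4 times under INA and below 0 at all 4 under MeJA, whereas under ET it was above 0 at 2 of 4. By Dixon's criterion at the 95% level, no single time stood apart from the other 3 of its agent for the 3 genes. With 4 values that criterion can hardly single out a time, so it does not show that no time drives a mean. Leaving out 1 time did move some means. DPE1 under BTH went from -0.81 to -0.37 without 24 h, and AT1G62660 under BTH from 0.79 to 0.50 without 10 h.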

How the results depend on the processing

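The median of all tested genes rose from near 0 to between 0.25 and 0.85 over the agents in the deposited values, 0.27 to 1.40 after centring on TUA5 and 0.41 to 0.59 after quantile normalization. In that order of scalings, AT5G51830 under ET was 1.27, 0.99 and 1.18, all now called. AT1G62660 was 0.94, 1.31 and 0.66 under SA and 1.07, 0.79 and 0.94 under ET, all now called, and -0.28, -0.085 and -0.58 under INA, no longer called. DPE1 was -0.50, 0.55 and -0.26 under BTH, -0.24, -0.52 and -0.53 under ET, and -0.47, 0.16 and -0.29 under MeJA, none called. DPE1 passed as higher under SA in the deposited values (0.88) and with TUA5 (1.25), and under INA at 1.16, 1.35 and 0.87. DPE1 called pairs of agents numbered 5 under each of these scalings, and AT1G62660 pairs 4 in the deposited values. BTH minus BABA for DPE1 turned to 0.11 with TUA5. Late minus early for AT5G51830 was -0.80 and -0.47 (deposited and TUA5), and 24 h against earlier -0.50 with TUA5, where AT1G62660 had 1.05, now called, and DPE1 -0.45. APL3 turned to 0.10 and 0.42 under SA, and with TUA5 to 0.73 under INA and 1.32 under BTH.

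Without the 24 h conditions DPE1 was 0.63 under INA and 0.68 under BABA, now called, and -0.37 under BTH and -0.45 under MeJA, no longer called, and AT5G51830 late minus early was -0.52. Without 10 h, AT1G62660 under BTH was 0.50, DPE1 under MeJA -0.81 (adjusted p = 0.051), DPE1 late minus early -1.03, now called, and DPE1 pairs 0. Without 5 h, AT5G51830 under BABA was 0.68 and DPE1 pairs were 3. Without 2 h, AT1G62660 under BTH was 0.62 and AT5G51830 late minus early -0.73. Without time terms, DPE1 kept -0.81 under BTH and -0.77 under MeJA with adjusted p of 0.058 and 0.088, and pairs were 5 for AT5G51830 and 0 for DPE1. The cause was not tested.

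With 1 of the repeat arrays left out, AT5G51830 late minus early ran from -0.88 to -0.79 and was lost without the second arrays. The fit of all 27 arrays with the replicate number as a block, in which repeat arrays of one RNA also enter separately, gave another call for 2 of 83 results, both pairs of agents for AT5G51830, and for no other. The 2 changes were not separated. With both spots required, AT5G51830 was not tested. A further 11 uncalled values of the members changed sign in some setting. Counts of all called genes also moved by over 1.5 times. Without centring they were 5 for SA against INA (12 as reported), 48 for SA against BTH (73), 37 for SA against BABA (70), 52 for SA against ET (102), 26 for INA against BTH (61), 10 for INA against BABA (32), 33 for INA against ET (62), 49 for INA against MeJA (89), 36 for BTH against BABA (84), 23 for BTH against MeJA (62), 47 for BABA against ET (83), 66 for BABA against MeJA (105), 22 for ET against MeJA (38), 16 for late against early (45) and 45 for 24 h against earlier (76). Relative to TUA5 they were 134 under MeJA (83) and 95 for BTH against ET (43). Over all settings, those that leave scaling unchanged included, SA against INA ran from 0 to 26 and INA against BABA from 7 to 56. BTH against ET ran from 9 to 95 and ET against MeJA from 11 to 47. INA against BTH ran from 20 to 71 and BTH against BABA from 36 to 127.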
